A study of Mus musculus with 8 samples.

Results

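The genes of cholesterol synthesis and sterol regulation were followed in mouse liver through 30 genes, taken by name from an array on which 15340 genes could be compared. The list holds 8 enzymes that build isoprenoid units from acetyl-CoA, 11 enzymes that turn those units into cholesterol, 4 regulators of the SREBP pathway, and 7 proteins that store, carry or export sterols. They were picked by gene name from this pathway, with earlier results of these data known. All 30 had signal well above background on all 8 arrays.

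The liver RNA came from AIM+/+ wild-type mice and AIM-/- knockout mice, both on the C57Bl/6 strain background. AIM, a secreted protein of tissue macrophages, is encoded by Cd5l. Livers were sampled from mice of each genotype on normal chow (called 0 weeks) and after 6, 12 and 20 weeks of high-fat feeding, with a single array per genotype and time point. The labels give no age, sex, number of animals per array, hour of collection or feeding state, nor the way the knockout was made. Because each group holds 1 array, a difference at a single week has no replicate check. Every array of the wild type lay on 1 slide and every array of the knockout on another, so that genotype and slide cannot be told apart.

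Liver cells make cholesterol from acetyl-CoA through mevalonate, farnesyl diphosphate, squalene and lanosterol. When sterols run low in the endoplasmic reticulum, the escort protein Scap carries the transcription factor SREBP-2 (gene Srebf2) to the Golgi for cleavage, and the freed factor switches on most enzymes of the pathway. Insig1 and Insig2 hold Scap back when sterols are plentiful, and cells with excess sterol esterify it through Soat1 and Soat2 or export it through Abca1 and the Abcg5/Abcg8 pair.

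Promoter sequence is shown for the members whose values are described most closely below: 2 enzymes that stood far lower in the knockout on chow, both Insig genes, which went opposite ways there, and the short stretch between Abcg5 and Abcg8, a pair that stood higher there. The sequences are from RefSeq on GRCm38.p6, the 250 bases before an annotated transcript start, written 5′ to 3′ on the gene's own strand. Capitals mark CCAAT on either strand (ATTGG is its reverse complement), the box bound by NF-Y, and, in Hmgcs1, the match to TCACNCCAC, a form of the sterol regulatory element bound by SREBP. The windows are chr13:119690101-119690350 on the plus strand for Hmgcs1, chr8:122443423-122443672 on the minus strand for Mvd (it overlaps the annotated gene 9330133O14Rik), chr5:28071162-28071411 on the plus strand for Insig1 (it overlaps Gm35223), chr1:121332590-121332839 on the minus strand for the most upstream start of Insig2, and chr17:84683012-84683120, written on the plus strand, for the 109 bases between the start of Abcg5 and the nearer of the annotated starts of Abcg8, whose longer gene model overlaps this stretch.
Hmgcs1: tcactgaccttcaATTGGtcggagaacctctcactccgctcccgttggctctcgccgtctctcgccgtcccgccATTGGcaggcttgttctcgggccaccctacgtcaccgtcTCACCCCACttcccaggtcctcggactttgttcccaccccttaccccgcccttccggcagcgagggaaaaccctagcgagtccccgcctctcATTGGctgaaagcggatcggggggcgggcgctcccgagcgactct
Mvd: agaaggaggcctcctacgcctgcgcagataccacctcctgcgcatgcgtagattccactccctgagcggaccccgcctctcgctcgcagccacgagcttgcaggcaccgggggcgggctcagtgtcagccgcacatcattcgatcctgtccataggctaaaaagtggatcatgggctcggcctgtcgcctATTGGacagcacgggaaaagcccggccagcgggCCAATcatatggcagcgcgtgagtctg
Insig1: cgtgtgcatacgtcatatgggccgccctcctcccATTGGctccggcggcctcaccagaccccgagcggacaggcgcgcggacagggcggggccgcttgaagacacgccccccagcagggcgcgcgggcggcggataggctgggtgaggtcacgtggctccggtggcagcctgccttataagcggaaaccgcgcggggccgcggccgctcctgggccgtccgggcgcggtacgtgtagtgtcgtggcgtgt
Insig2: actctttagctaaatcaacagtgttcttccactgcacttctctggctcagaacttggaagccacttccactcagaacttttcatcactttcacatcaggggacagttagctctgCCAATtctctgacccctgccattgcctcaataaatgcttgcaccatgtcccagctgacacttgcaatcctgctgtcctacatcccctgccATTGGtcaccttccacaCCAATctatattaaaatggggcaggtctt
Abcg5-Abcg8: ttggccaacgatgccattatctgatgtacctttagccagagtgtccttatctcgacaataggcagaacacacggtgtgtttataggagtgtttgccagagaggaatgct
Of the 30 members, 24 had at least 1 window in the RefSeq table, 31 windows in all. CCAAT, searched on both strands, was present in 20 of these 31 windows (64.5%), against 33.8% of all 32851 windows of this length. Among the windows of synthesis enzymes it was present in 15 of 19 (78.9%). GGGCGG, the GC box bound by Sp1, was present in 21 of 31 windows (67.7%) against 32.7% of all windows, and in 1 of the 5 windows of storage and export genes. TCACNCCAC was found only in the Hmgcs1 window among these 31, and in 1.05% of all windows. Each motif was counted separately, whether or not it overlapped another, and a match is only a description of the window. The stretch between Abcg5 and Abcg8 held none of the 3.

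On normal chow the synthesis enzymes stood lower in the knockout than in the wild type, and the export genes stood higher. Of the 30 members, 9 were at least 2-fold lower in the knockout (4.34% of all genes were) and 2 were at least 2-fold higher (2.91% of all genes were). The 9 lower genes were Hmgcs1, Mvd, Idi1, Fdps, Sqle, Nsdhl, Hsd17b7, Dhcr7 and Insig2, and the 2 higher genes were Abcg5 and Abcg8. On the high-fat diet these differences were smaller and many changed sign: Abcg5 at 6 weeks was the only member at least 2-fold apart at any later week. Over all genes, the share at least 2-fold higher in the knockout was 3.06%, 2.54% and 1.99% for the 3 diet weeks, and the share at least 2-fold lower was 3.51%, 2.02% and 2.17%. Because this is bulk tissue, fewer cells of a type and less RNA per cell cannot be told apart.

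**Figure D1:**
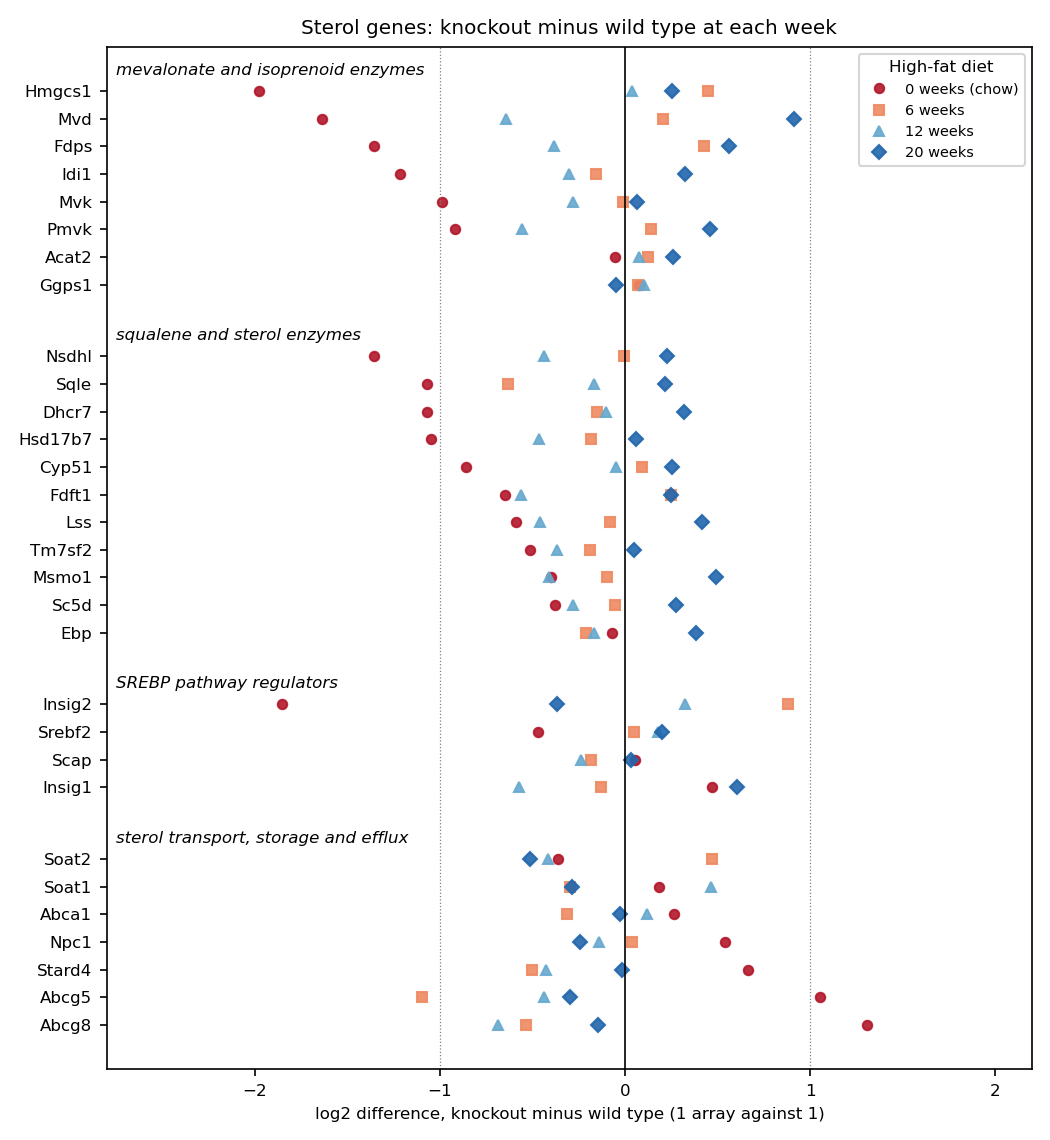
Log2 difference in signal, knockout minus wild type, for each of the 30 genes (rows, grouped by role) at each week (points, 1 array against 1; dotted lines mark 2-fold). On chow, 18 of the 19 enzymes lie to the left of zero and 6 of the 7 storage, carriage and export genes to the right; at 20 weeks 18 of the 19 enzymes lie to the right and all 7 of the other group to the left, Stard4 by only -0.01.

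The early enzymes, from acetyl-CoA to farnesyl and geranylgeranyl diphosphate, had a median log2 difference of -1.10 on chow, 0.13 at 6 weeks, -0.29 at 12 weeks and 0.29 at 20 weeks. The medians over all genes were 0.01, -0.05, -0.00 and 0.03. Hmgcs1, the cytosolic HMG-CoA synthase, had the largest difference of any member. Its scaled signal (the processed signal brought to a common 75th percentile) was 46176 in wild-type liver on chow and 24844, 43934 and 25321 after 6, 12 and 20 weeks of diet, against 11739, 33877, 45133 and 30156 for the knockout in the same order. The knockout chow array was thus the lowest of the 8 and stood 3.93-fold below its wild-type partner, whereas at the 3 diet weeks the knockout was 1.03-fold to 1.36-fold higher. Its 2 dimmer probes were well above background on only 7 and 3 arrays and were not used to judge the chow difference.

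Mvd, the mevalonate diphosphate decarboxylase that yields isopentenyl diphosphate, gave 2018, 2004, 3094 and 1111 in the wild type and 649, 2308, 1981 and 2095 in the knockout, in the same order of weeks. On chow the knockout was 3.11-fold lower. The order of the genotypes changed at each step, with log2 differences of -1.64, 0.20, -0.64 and 0.92, and the value at 20 weeks was the largest positive difference of any member at that time. Its probe, the only one kept for Mvd, lies at chr8:125319940-125319999 on mm8.

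Fdps, which makes farnesyl diphosphate, gave 14287, 6831, 12915 and 9475 in the wild type and 5577, 9169, 9899 and 13987 in the knockout. The knockout was 2.56-fold lower on chow, and at 20 weeks 1.48-fold higher. A second, dimmer Fdps probe, designed to another transcript record, went the opposite way on chow: it was higher in the knockout by 0.68, 0.41, 1.35 and 0.33 at the 4 time points. With the mean of both probes in place of the brighter one, the chow difference of Fdps was -0.34. The brighter Fdps probe lies 1.72 Mb from the Cd5l probe on chromosome 3 (mm8), and the Pmvk probe 2.10 Mb from it; the part of the neighbouring Cd5l locus in these values was not tested.

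Idi1, named for isopentenyl diphosphate isomerase, gave 9668, 5449, 7855 and 5871 in the wild type and 4167, 4894, 6359 and 7366 in the knockout. It was 2.32-fold lower on chow in the knockout and 1.25-fold higher at 20 weeks, and its second probe had the same sign at all 4 weeks. Both probes lie on chromosome 2 in the array's mm8 annotation, however, whereas RefSeq places Idi1 on chromosome 13, so the identity of this transcript is uncertain.

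The other early enzymes differed less. Mvk and Pmvk, the kinases that phosphorylate mevalonate, lay just short of 2-fold on chow, at 1.99-fold and 1.89-fold lower in the knockout. Acat2, the cytosolic acetoacetyl-CoA thiolase, had differences between -0.05 and 0.26. Ggps1, which makes geranylgeranyl diphosphate for protein prenylation and lies off the route to cholesterol, differed by at most 1.08-fold by its brightest probe, by which it was the only enzyme higher in the knockout on chow. Its 2 dimmer probes were lower there (-0.14 and -0.30) and at 6 weeks (-0.39 and -2.45), so the probes of Ggps1 disagree.

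All 11 enzymes from squalene onwards were lower in the knockout on chow and at 12 weeks, and all 11 were higher at 20 weeks. Their median differences were -0.65, -0.10, -0.37 and 0.26 at 0, 6, 12 and 20 weeks. Over all genes, 48.3% were lower in the knockout on chow, 50.5% were lower at 12 weeks and 55.4% were higher at 20 weeks. The differences at 12 and 20 weeks were small: the largest at 12 weeks was -0.56 for Fdft1, squalene synthase, and the largest at 20 weeks was 0.49 for Msmo1, a methylsterol monooxygenase.

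In this group Nsdhl, a sterol dehydrogenase that takes part in removing methyl groups from lanosterol, had the largest chow difference. Its signal was 773, 533, 625 and 577 in the wild type and 302, 532, 462 and 676 in the knockout. The knockout array on chow was 2.56-fold below the wild type and the lowest of the 8, and at 6 weeks the genotypes were level, at 533 and 532. All 4 kept Nsdhl probes were lower in the knockout on chow and higher at 20 weeks. Hsd17b7, a ketoreductase of the same demethylation steps, gave 1747, 2276, 2504 and 2014 in the wild type and 845, 2005, 1818 and 2099 in the knockout, and was 2.07-fold lower in the knockout on chow.

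Sqle, squalene epoxidase, gave 2432, 2254, 3577 and 2191 in the wild type and 1158, 1455, 3181 and 2551 in the knockout. Here the knockout stayed lower at 6 weeks by 1.55-fold after a 2.10-fold difference on chow, and both genotypes were highest at 12 weeks. Dhcr7, the reductase that makes cholesterol from 7-dehydrocholesterol, gave 15766, 12267, 16357 and 11708 in the wild type and 7511, 11051, 15261 and 14596 in the knockout. Dhcr7 was also 2.10-fold lower in the knockout on chow, but its later differences lay between -0.15 and 0.32. Of the remaining enzymes, Cyp51 (lanosterol demethylase), Fdft1, Lss (lanosterol synthase), Tm7sf2 (a sterol reductase), Msmo1, Sc5d (a sterol desaturase) and Ebp (a sterol isomerase) were 1.05-fold to 1.81-fold lower in the knockout on chow. For Lss, 1 of its 3 probes went the other way, with a difference of 0.17.

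**Figure D2:**
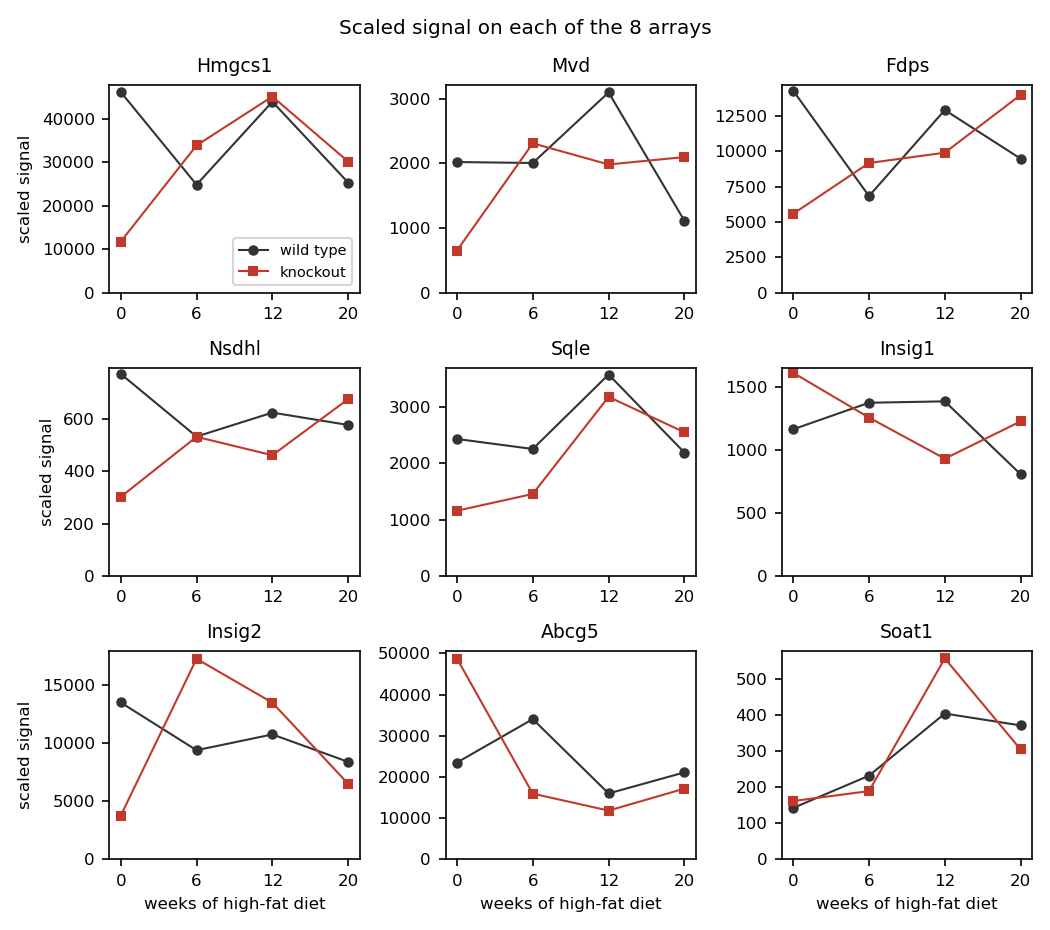
Scaled signal (vertical axis, linear, from zero) against weeks of high-fat diet for 9 members, with 1 point per array, wild type in black circles and knockout in red squares. For Hmgcs1, Mvd, Fdps, Nsdhl, Sqle and Insig2 the knockout chow array is the lowest of the 8, and for Insig1 and Abcg5 it is the highest.

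The 4 regulators went different ways. Insig2, the Insig form that is abundant in liver and responds to insulin and fasting, stood lower in the knockout on chow as most enzymes did, but not at later weeks as they did: its signal was 13519.9, 9399, 10762 and 8393 in the wild type and 3746, 17293, 13504 and 6497 in the knockout. It was 3.61-fold lower in the knockout on chow, 1.84-fold higher at 6 weeks, 1.25-fold higher at 12 weeks and 1.29-fold lower at 20 weeks, and its second kept probe had the same sign at every week. Insig1, itself a target of SREBP, went the other way on chow, with 1164, 1376, 1387 and 807 in the wild type and 1613, 1258, 931 and 1228 in the knockout. It was 1.39-fold higher in the knockout on chow and 1.52-fold higher at 20 weeks, and 1.49-fold lower at 12 weeks. By its brightest probe Srebf2 was 1.38-fold lower in the knockout on chow and 1.03-fold to 1.15-fold higher on the diet. Its other kept probes differed by only -0.11 and -0.13 on chow, and at 6 weeks by 0.19 and -0.12. Scap differed by at most 1.18-fold at any week.

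Among the genes of storage, carriage and export the median difference was 0.54 on chow, -0.31 at 6 weeks, -0.42 at 12 weeks and -0.24 at 20 weeks. Abcg5 and Abcg8 encode the partner subunits of a transporter that secretes sterols into bile. Abcg5 signal was 23478, 34033, 15962 and 21078 in the wild type and 48766, 15915, 11787 and 17133 in the knockout, and that of Abcg8 was 404, 538, 246 and 379 in the wild type and 1001, 372, 153 and 342 in the knockout. The knockout chow array was the highest of the 8 for both genes, by 2.08-fold and 2.47-fold over the wild type, and at the 3 diet weeks the knockout was the lower genotype for both. The difference in Abcg5 at 6 weeks was 2.14-fold, the only one past 2-fold on the diet (3.51% of all genes were at least 2-fold lower at 6 weeks), and it had the opposite sign to that on chow.

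Stard4, which carries sterols through the cytosol, was 1.59-fold higher in the knockout on chow and 1.42-fold and 1.35-fold lower at 6 and 12 weeks. At 20 weeks its brightest probe was level (-0.01), while its other 2 probes were higher in the knockout by 0.74 and 0.66. Npc1, which releases cholesterol from lysosomes, was 1.46-fold higher on chow and within 1.18-fold later. Abca1, which loads cholesterol onto apolipoprotein A-I, was 0.27 higher on chow on the log2 scale and at most 1.24-fold apart later. Soat2, the acyltransferase of hepatocytes, was 1.28-fold lower in the knockout on chow, 1.39-fold higher at 6 weeks and 1.33-fold and 1.43-fold lower at 12 and 20 weeks.

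**Figure D3:**
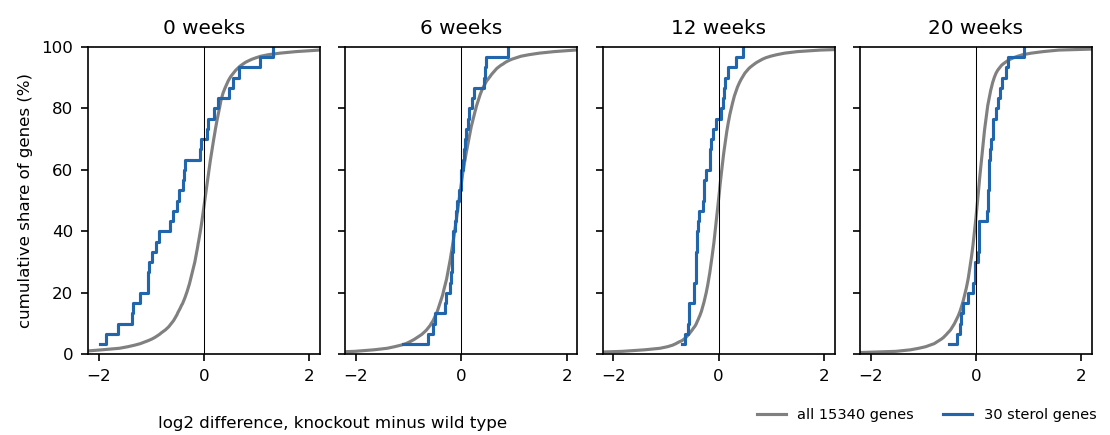
Cumulative share of genes (vertical axis, percent) against the log2 difference, knockout minus wild type, at each week, for the 30 sterol genes (blue steps) and all 15340 genes (grey). The blue line lies left of the grey line through most of its course on chow (median -0.49 against 0.01) and, by less, at 12 weeks (-0.29 against -0.00), runs close to it at 6 weeks (-0.07 against -0.05), and lies right of it at 20 weeks (0.22 against 0.03).

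By direction alone, 21 of 30 members were lower in the knockout on chow (48.3% of all genes), 18 at 6 weeks (55.6%) and 23 at 12 weeks (50.5%), and 21 were higher at 20 weeks (55.4%). The pattern of lower on chow and higher at 20 weeks was shown by 19 of 30 members, against 25.2% of all genes. Of these 19, 18 were synthesis enzymes and the other was Srebf2. The members were chosen with earlier results of these data known, so these shares describe the list and test nothing. By the brightest probe of each gene, only Acat2, Hmgcs1 and Srebf2 were lower on chow and higher at all 3 diet weeks, 3 of 30 against 5.4% of all genes.

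The diet arrays were next set against the chow array of their own genotype. In the knockout, 16 of 30 members were above their chow value at all 3 diet weeks (28.9% of all genes). In that genotype 8 of 30 were below it at all 3, no larger a share than over all genes (33.6%). In the wild type 15 of 30 were below it at all 3 (27.9% of all genes). Above chow in the knockout and below it in the wild type, at all 3 weeks, were 9 members, against 3.46% of all genes. They were Hmgcs1, Mvk, Pmvk, Idi1, Fdps, Fdft1, Cyp51, Nsdhl and Insig2. Npc1 alone showed the reverse pair, against 3.17% of all genes. For the 19 enzymes the median difference from chow was -0.47, -0.15 and -0.42 at 6, 12 and 20 weeks in the wild type, and 0.33, 0.30 and 0.81 in the knockout.

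**Figure D4:**
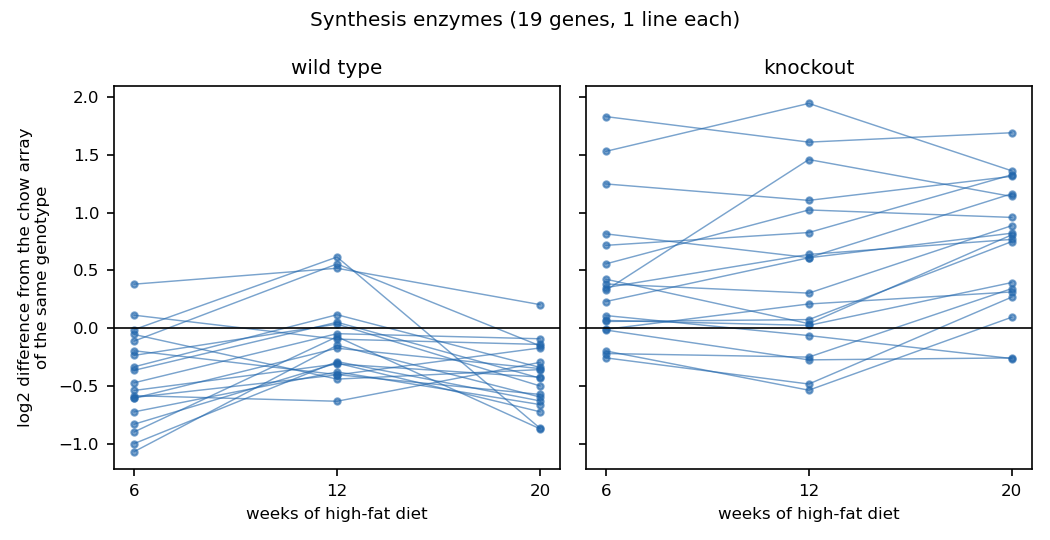
Log2 difference of each diet array from the chow array of the same genotype (vertical axis) at 6, 12 and 20 weeks, with 1 line for each of the 19 synthesis enzymes, wild type on the left and knockout on the right. At 20 weeks 18 of 19 lie below zero in the wild type and 17 of 19 above zero in the knockout. Of all 15340 genes, 8414 lay below zero in the wild type and 7531 above zero in the knockout at that week.

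At least 2-fold differences from chow were found mostly in the knockout. At 12 weeks 7 members stood at least 2-fold above chow there (11.3% of all genes did), Hmgcs1, Mvd, Sqle, Hsd17b7, Dhcr7, Insig2 and Soat1. Abcg5, Abcg8 and Stard4 stood at least 2-fold below it (6.21% of all genes did). In the wild type the count at that week was 1 above, Soat1 (8.67% of all genes), and 0 below (5.26%). For Hmgcs1 the diet arrays lay 1.36 to 1.94 above chow in the knockout and 0.07 to 0.89 below it in the wild type, on the log2 scale. Each of these counts uses the single chow array of its genotype for all 3 weeks.

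A single knockout array therefore takes part in most of the larger values. The knockout chow array was the lowest of the 8 for 13 members (16% of all genes) and the highest for 7 (19.2% of all genes), and the wild-type chow array was the highest for 10 (14% of all genes). The 13 were Hmgcs1, Mvk, Mvd, Idi1, Fdps, Fdft1, Sqle, Cyp51, Nsdhl, Hsd17b7, Dhcr7, Srebf2 and Insig2, and the 7 were Insig1, Scap, Stard4, Npc1, Abca1, Abcg5 and Abcg8. The next most frequent extreme was the knockout array at 12 weeks, lowest for 9 members (18.5% of all genes), among them Abcg5 and Abcg8.

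Whether the genotype difference changed between chow and diet was tested with limma over all 8 arrays, taking the 3 diet arrays of a genotype as its replicates. No member passed after Benjamini-Hochberg adjustment over 15340 genes, and no other gene did (0% of all genes). At an unadjusted p under 0.05 there were 10 members, against 4.43% of all genes: Hmgcs1, Idi1, Fdps, Cyp51, Nsdhl, Hsd17b7, Dhcr7, Insig2, Abcg5 and Stard4. The smallest adjusted p by limma was 0.78, for Hmgcs1, whose difference was 2.22 higher on the diet than on chow (SE 0.57), followed by 0.86 for Nsdhl with 1.28 (SE 0.36). The change was 2.13 for Insig2 (SE 0.75) and -1.67 for Abcg5 (SE 0.63), with larger adjusted p. The median over the 30 members was 0.47, against -0.02 over all genes. This test gives the only chow array of a genotype the same spread as the diet arrays, and treats the diet weeks as repeats.

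Averaged over the 4 weeks, no member passed a test of genotype. By limma with the week as a factor, 0 of 30 members passed for knockout minus wild type (0.0326% of all genes did), and 0 had an unadjusted p under 0.05 (5.59% of all genes). The smallest adjusted p was 0.99, for Tm7sf2, which stood lower by 0.26 (SE 0.13). The median over the members was -0.18 and moved to -0.04 when both chow arrays were left out.

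The mean of the diet weeks against chow, over both genotypes, also gave 0 of 30 members past the threshold (2.33% of all genes), with 4 at an unadjusted p under 0.05 (25.2% of all genes). These were Soat1, Hsd17b7, Abca1 and Scap. Soat1, the acyltransferase found in macrophages and many other cells, came closest. Only 1 of its 3 probes was kept, the others being well above background on no array. By the kept probe its signal was 142, 231, 403 and 370.2 in the wild type and 161, 188, 556 and 304 in the knockout. Both chow arrays lay below all 6 diet arrays, and both genotypes were highest at 12 weeks. The limma coefficient was 1.09 (SE 0.19, adjusted p = 0.0601), and the adjusted p was 0.0427 with normexp background correction (coefficient 0.82) and 0.0272 when only probes well above background on all 8 arrays were kept, so that Soat1 passed under those settings. Without the 12-week arrays the coefficient was 0.81 (limma adjusted p = 0.20).

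Markers of recruited and lipid-associated macrophages were high at the weeks when Soat1 was highest. For 9 of 12 such markers measured, the summed signal was 3735 and 5086 on the chow arrays of wild type and knockout, 3897 and 6507 on those of 6 weeks, 19457 and 41299 on those of 12 weeks and 19356 and 12897 on those of 20 weeks. From chow to 6 weeks in the wild type that sum was nearly level, while Soat1 went from 142 to 231. Gpnmb and Ccr2 were well above background only on the 4 arrays of 12 and 20 weeks. Kupffer cell markers without Cd5l summed to 22023 and 23385 on the chow arrays and 24028 to 33793 on the diet arrays, with 9 of 12 higher on the diet and all 12 lower in the knockout at 6 and 20 weeks. Markers of other cells were mostly higher on the diet, 10 of 10 for stellate cells and 7 of 9 for endothelial cells. Among the markers measured, it was 5 of 5 for neutrophils, 5 of 6 for T and NK cells and 5 of 7 for cholangiocytes. For the pancreas it was 2 of 3 measured, and for adipocytes 4 of 4 measured. The summed adipocyte signal was 2122 and 2281 on chow and 12393 to 59908 on the diet. Hepatocyte markers went the other way: all 8 measured were lower on the diet, with a median coefficient of -0.23. Over all genes, 47.4% were higher on the diet, and 55.6% at 6 weeks and 44.6% at 20 weeks were lower in the knockout. The part of these cells in the Soat1 values was not tested.

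Abca1 and Scap stood lower on the diet, by coefficients of -0.58 (SE 0.15) and -0.43 (SE 0.12), and Hsd17b7 stood higher, by 0.80 (SE 0.23), all with adjusted p of 0.10 to 0.13 by limma. The median over the members was -0.03 and that over all genes -0.02. By limma, 0 of 30 members passed between 6 and 20 weeks (0.117% of all genes), with 1 at an unadjusted p under 0.05, Soat1 (15.9% of all genes). Between 6 and 12 weeks 0 passed (0% of all genes), with Soat1 and Sqle at an unadjusted p under 0.05 (17.7% of all genes).

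Other gene groups differed strongly between the same pair of chow arrays. Of 20 genes of the circadian clock, 17 were measured. On chow 9 of them were at least 2-fold higher in the knockout (2.91% of all genes) and 2 at least 2-fold lower (4.34%), with a median of 1.06. Dbp, a clock output gene, read 11034 in the wild type and 76151 in the knockout, and Arntl, a core clock gene of the opposite phase, 319 and 25.8, the latter not well above background. The summed clock signal was 23381 and 95308 on these arrays and 48038 to 72494 on the other 6. At 6 weeks the median was -0.27, with 3 of 17 at least 2-fold lower (3.51% of all genes) and 1 higher (3.06%).

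Of 15 genes that respond to feeding and fasting, 13 were measured, with a median of -0.69 on chow. In the knockout 6 were at least 2-fold lower there (4.34% of all genes) and 2 at least 2-fold higher (2.91%). G6pc, the last enzyme of glucose release, read 34173 in the wild type and 902 in the knockout. The summed signal of this list was 187042 and 136051 on the chow arrays and 126036 to 211038 on the others. The 16 genes of fatty acid synthesis answer to insulin and to the related factor SREBP-1c. They had a median of -0.81 on chow, with 7 at least 2-fold lower (4.34% of all genes). Their medians were 0.16, -0.56 and 0.37 at 6, 12 and 20 weeks. Fasn, the fatty acid synthase, read 144596 and 49172 on the chow arrays. Their part in the values of the sterol genes was not tested.

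Of 30 further genes of sterol metabolism, 28 were measured and none passed in any of the fitted comparisons. Their median on chow was 0.21, with 1 at least 2-fold higher in the knockout (2.91% of all genes) and 0 lower (4.34%). That gene was Cyp46a1, a cholesterol hydroxylase, with 542 on the knockout chow array and 89.5 to 113 on the other 7.

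The labels were borne out for genotype and tissue. Cd5l read 11792, 24249.8, 30606 and 21229 on the wild-type arrays and 90.9, 131, 173 and 128 on the knockout arrays. All 8 measured hepatocyte markers were well above background on all arrays, with Alb at 320730.2 to 438216. Of 41174 probes, 18586 to 21119 were marked as well above background on an array, no spot was saturated, and the number of arrays limits the precision. The Y-linked transcripts Ddx3y, Eif2s3y and Kdm5d were not well above background on both 20-week arrays and high on the other 6, and Xist was highest on those 2. Xist was also well above background on the knockout array at 6 weeks and the wild-type array at 12 weeks, where the Y-linked transcripts were high as well, so the pairs of 6 and 12 weeks differed within themselves too, with log2 differences of 3.54 and -3.40. Of 14 measured genes that differ between the livers of male and female mice, the differences at 6 weeks ran from -6.39 for Hsd3b5, a gene of male liver, to 7.20 for Cyp2b9, a gene of female liver. Cyp2b9 read 72.2 to 717 on both chow arrays and the wild-type array of 6 weeks, and 10638 to 38722 on the other 5. The part of sex in the sterol gene values of these pairs was not tested. For the sterol genes, differences between 20 weeks and other times cannot be told apart from the low Y-linked signal, which the 20-week arrays of both genotypes share.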

How the data were processed

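Liver RNA was labelled with Cy3 and hybridised to 8 Agilent arrays, 1 for each genotype and week. The deposited scanner files hold the intensity of each spot, from Feature Extraction 9.5 according to the submitters' processing notes, background-subtracted per the file headers (version 9.5.3.1). The deposited matrix holds log2 values, which matched log2 processed intensity minus the array's 75th percentile (at least 99.7% of probes within 0.01 of a constant).

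The log2 processed intensity minus each array's 75th percentile was used, without 1639 control spots and 75 to 130 outlier spots per array. Probes well above background on at least 2 of 8 arrays were kept (21385 of 41174), and the brightest stood for a gene (15340 genes). Members were found by the file's gene name (61 probes, 55 kept); other names came through RefSeq accessions (24375 probes matched). Of 17 members with several kept probes, all had 1 sign on chow in 14. Coordinates of probes are mm8, and the exon or UTR was not analysed.

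Files were read with data.table (1.17.8) and tests run with limma (3.58.1) under R (4.3.3). A model of week (4 levels) and genotype left 3 residual degrees of freedom, and a model of genotype by chow or diet left 4. Weeks stand in for replicates, and the p-values rest on the spread among these arrays and not among animals. Adjustment was by Benjamini-Hochberg over all genes, threshold 0.05. Single weeks were compared without a test, at 2-fold where either array of the pair was well above background. The genotype and the diet minus chow comparisons were tried on simulated data with independent noise. The interaction and the comparisons between diet weeks were not.

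The members and lists were chosen with earlier results of these data known. Per-array values are given for members at least 2-fold apart at a week, others by range; Insig1 and Soat1 were added after their values were seen.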

Additional observations from a re-analysis of the deposited data

How the results depend on the processing

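The counts of members past a threshold were recomputed with normexp background, quantile normalization, the deposited value table, no filter, a filter on all 8 arrays, the mean of a gene's probes, and signal required on both arrays. For diet minus chow the count of 0 became 1 with normexp and 1 with the filter on all 8 arrays, in each case Soat1 (coefficients 0.82 and 1.09). At 6 weeks the count of members at least 2-fold apart was 1, and it was 0 with normexp and 2 with the mean of probes. At that week the brightest Hmgcs1 probe differed by 0.45 and its dimmer probes by 1.58 and 1.01. The chow count of 11 ranged from 9 to 12. The cause was not tested. With the mean of probes, the chow difference of Fdps was -0.34 and the median for 20 minus 6 weeks 0.01. The other 69 counts stayed within 1.5 times, and no value past a threshold changed sign. The diet minus chow median of the members, -0.03, was 0.02 with quantile normalization and 0.03 without the 6-week arrays, so it has no settled sign. Leaving out both arrays of a week (leave-one-out) left 0 members past the threshold in every fitted comparison. The genotype median was -0.04 without the chow arrays, and the interaction median 0.60 without the 12-week arrays and 0.35 without the 20-week arrays. The chow arrays could not be left out of the diet and interaction fits. No paired analysis was possible because each group holds 1 array, all labelled replicate 1, so replicate numbers pair nothing; the genotype test already compares arrays within a week, through week as a factor. A slide block could not be fitted, since slide and genotype coincide. Signal over background limits the dimmer probes of Hmgcs1, Nsdhl and Ggps1, and Arntl, Gpnmb, Ccr2, Xist and the Y-linked transcripts on some arrays.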
